A study of Mus musculus with 22 samples.

Results

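Imiquimod (IMQ) was compared with vehicle in dorsal root ganglia of mice that lack periostin, over all genes expressed in the ganglion. The comparison was chosen by its labels: 5 of the 22 samples in the series are whole ganglia labelled Postn knock out (KO), 3 of them vehicle-treated and 2 IMQ-treated. Ganglia from lower thoracic to lumbar levels were taken after 5 days of treatment and their polyadenylated RNA was sequenced. The 5 libraries carry the same knockout genotype, so they differ by label only in treatment. The labels give neither the Postn allele, the strain, the age or sex of the animals, the dose and route of IMQ, nor whether a library is 1 animal or a pool. The other ganglion libraries, from wild-type (WT) mice given vehicle or IMQ, were not part of the contrast. They entered the estimate of the spread between replicates, the filter for low counts and the scaling between libraries. They also served as a reference for the level of Postn and for the trend of CPM with gene length.

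IMQ is a small synthetic agonist of Toll-like receptor 7 (TLR7), a receptor in the endosomes of plasmacytoid dendritic cells, macrophages and B cells that normally detects single-stranded RNA. The receptor signals through MYD88 to IRF7 and NF-kB, which switch on type I interferons and inflammatory cytokines, and IMQ cream on mouse skin is widely used as a model of psoriasis-like inflammation. Sensory neurons of the dorsal root ganglia carry itch and pain signals from the skin to the spinal cord. In the ganglion their cell bodies are wrapped by satellite glia, their axons by Schwann cells, and resident macrophages lie between them. Periostin, the product of Postn, is a secreted matricellular protein that binds integrins.

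The knocked-out gene checked the genotype labels. Postn was read at 3.89, 3.39 and 5.06 CPM in the vehicle libraries 1, 2 and 3 of the KO and at 7.43 and 4.38 CPM in its IMQ libraries 1 and 2. All 5 KO libraries lay below all 5 WT ganglion libraries, which ran from 20.9 to 49.7 CPM. Within the KO, IMQ and vehicle overlapped, and the difference did not pass the test (log2 fold change 0.52 ± 0.25 (SE), adjusted p = 0.614 by edgeR's quasi-likelihood test with Benjamini-Hochberg adjustment). CPM are counts divided by the library total in units of 1000000 counts, with totals scaled between libraries by the trimmed mean of M-values (TMM), and every fold change below is IMQ over vehicle on the log2 scale.

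The total count was 17036383, 22317210 and 19215883 in the vehicle libraries and 16769029 and 16666489 in the IMQ libraries. The labels do not say whether replicates came from separate animals, so p-values here measure the spread between these samples only. Replicates differed by more than counting error, with a chi-square per degree of freedom between 17.4 and 69.9. Markers of sensory neurons (7 genes, summed CPM 6930 to 8010) and Schwann cells (4 genes, 3440 to 4850) were present in each library, as the tissue label says, and no marker was at 0 in all 5. KO vehicle 1 stood apart by the blood cell genes and by ribosomal protein genes: the 3 erythroid markers summed to 402 CPM there against 17.7 to 69.0 CPM in the other 4 libraries, the 3 neutrophil markers to 240 CPM against 17.5 to 54.8 CPM, and ribosomal protein genes to 28850 CPM against 12870 to 18970 CPM. The libraries also differed in how CPM moved with gene length, by −0.211 log2 units per doubling of exon length in KO vehicle 1, 0.132 in KO vehicle 2 and 0.159 in KO IMQ 2, measured against the mean of the 10 ganglion libraries. KO IMQ 1 held skeletal muscle RNA, with Myh4, a fast muscle myosin, at 39.7 CPM against 0.972 to 5.7 CPM in the other 4. The part of these differences in the results was not tested, and values without each library are given where they matter.

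IMQ raised a set of genes of macrophages, Fc receptors and the interferon response in KO ganglia. Of 17197 genes tested, 187 rose and 3 fell at an edgeR quasi-likelihood adjusted p (Benjamini-Hochberg) below 0.05. That is 1.09% of all genes tested called higher and 0.0174% called lower, or 1.1% in either direction. At these shares, most lists of the sizes used below would hold no called gene. A list with none called is thus near the share over all genes. The lists were written with earlier results of these data known and share some members, so their counts are not separate results. DESeq2 called 275 higher and 21 lower, and edgeR with a replicate block 226 and 13. At an unadjusted p under 0.05, 901 genes were higher and 541 lower. In each of the 187 both IMQ libraries lay above all 3 vehicle libraries, as they did for 12.3% of all genes tested, and both lay below for 11.1%. The median log2 fold change of the 187 was 1.61, against −0.0054 over all genes tested, and 169 of them at least doubled, 62 rose at least 4-fold and 17 at least 8-fold.

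Most of these transcripts were rare in the ganglion. In vehicle, 160 of the 187 had a mean under 10 CPM and 33 a mean under 1 CPM. Their CPM summed to 1138, 1060 and 1160 in the vehicle libraries and to 3200 and 2848 in the IMQ libraries, which is 0.106% to 0.116% of a vehicle library and 0.285% to 0.32% of an IMQ library. In whole ganglia, more cells of a type and more RNA per cell cannot be told apart. KO IMQ 1 was above KO IMQ 2 in 143 of the 187 (76.5%), against 51.1% of all genes tested. The number called higher was 163, 136 and 109 without KO vehicle 1, 2 and 3, 53 without KO IMQ 1 and 114 without KO IMQ 2, and 51 of the 187 were called higher in each of these 5 fits. A fit on the 5 KO libraries alone, with no WT library in the spread, called 57 higher, 56 of them among the 187.

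**Figure D1:**
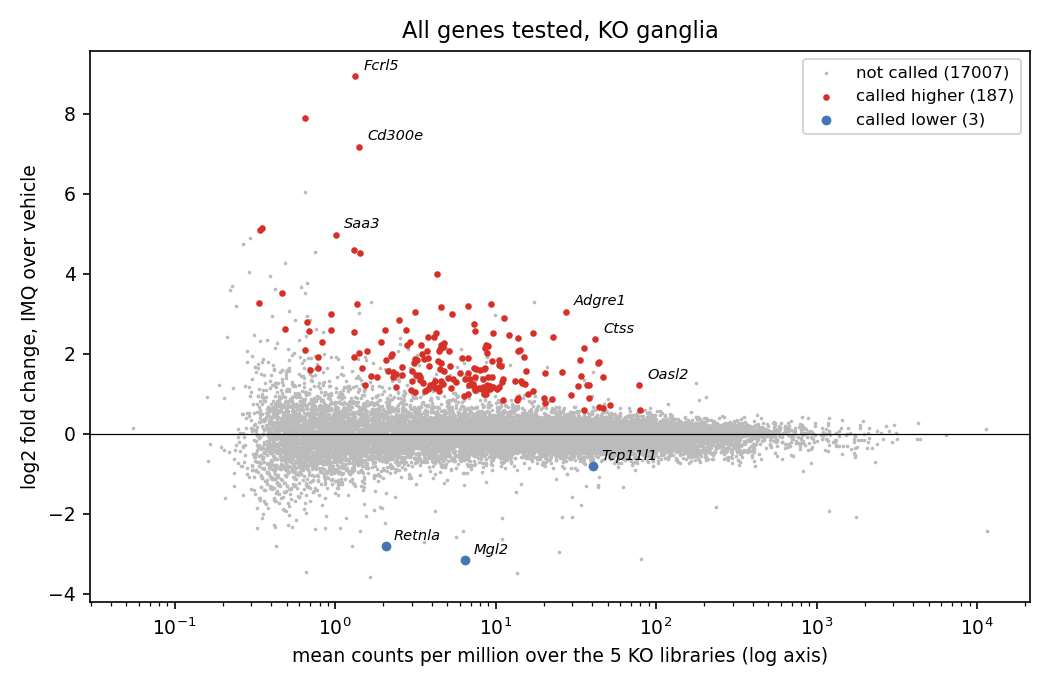
Each point is 1 of the 17197 genes tested, by its mean CPM over the 5 KO libraries (x, log axis) and its log2 fold change of IMQ over vehicle (y). The 187 genes called higher (red) lie mostly at low to middle levels, and the 3 called lower (blue) are Mgl2, Retnla and Tcp11l1. The fitted fold change of genes with no vehicle count, such as Fcrl5, depends on the prior count.

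Genes that mark macrophages in general were higher with IMQ. Of 20 pan-macrophage genes tested, 10 rose and none fell, against 1.09% called higher over all genes tested, and the list's median log2 fold change was 1.11. At an unadjusted p under 0.05, 16 of the 20 were higher and 1 lower. Adgre1, which encodes the macrophage surface receptor F4/80, was at 5.77, 6.83 and 8.32 CPM in vehicle and at 61.9 and 53.9 CPM with IMQ. The 2 groups were far apart relative to the spread within each, at a log2 fold change of 3.05 ± 0.16 (edgeR adjusted p = 3.72e-05). Csf1r, the receptor for the growth factor that macrophages depend on, was at 23, 25.6 and 24.5 CPM in vehicle and at 59.5 and 53.7 CPM with IMQ, a log2 fold change of 1.21 ± 0.11 (edgeR adjusted p = 0.00106). Itgam, the CD11b chain of complement receptor 3, had 3.28, 1.81 and 1.63 CPM in vehicle and 15.8 and 13.9 CPM with IMQ. Cx3cr1, the fractalkine receptor of monocytes and tissue macrophages, had 6.07, 9 and 6.32 CPM in vehicle and 27.8 and 25.9 CPM with IMQ. Ptprc, the pan-leukocyte phosphatase CD45, was at 5.83, 5.74 and 6.8 CPM in vehicle and 26.4 and 24.6 CPM with IMQ. None of these 5 genes overlapped between groups, each kept its call without any single KO library, and Itgam, Cx3cr1 and Ptprc had log2 fold changes of 2.75 ± 0.26, 1.91 ± 0.19 and 2.06 ± 0.24.

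Other macrophage genes in the same list did not pass. Lyz2, the myeloid lysozyme, was at 136, 74.9 and 106 CPM in vehicle and 145 and 152 CPM with IMQ (0.49 ± 0.21, edgeR adjusted p = 0.578). Trem2, a lipid-sensing receptor of phagocytes, had 3.04, 1.9 and 2.05 CPM in vehicle and 2.49 and 2.43 CPM with IMQ, with overlapping groups. Aif1, the macrophage protein IBA1, was higher in both IMQ libraries (16.5 and 13.8 CPM) than in vehicle (5.1, 2.17 and 5.9 CPM), and its log2 fold change of 1.8 ± 0.37 missed the threshold at an edgeR adjusted p of 0.0679. Without KO IMQ 1, 5 of the 20 were called higher, and 6 in the fit on the KO libraries alone. Laptm5, a lysosomal membrane protein of leukocytes, was among those lost without KO IMQ 1 (edgeR adjusted p = 0.0697).

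The only falls beyond the threshold were 3 genes, and 2 of them are in the list of resident and alternatively activated macrophage genes. Which cells lost these transcripts was not tested. Mgl2, which encodes the galactose-binding lectin CD301b of tissue macrophages and dermal dendritic cells, was at 8.87, 9.45 and 11.7 CPM in vehicle and at 1.45 and 0.77 CPM with IMQ. It fell by 3.16 ± 0.30 on the log2 scale (edgeR adjusted p = 0.00122), and the call held without any single KO library. Retnla, which encodes the secreted protein FIZZ1 that interleukin-4 induces in macrophages, was at 4.01, 2.13 and 3.32 CPM in vehicle and at 0.522 and 0.355 CPM with IMQ. Retnla fell by 2.81 ± 0.43 (edgeR adjusted p = 0.0126), but its adjusted p was 0.0511 without KO vehicle 3, 0.118 without KO IMQ 1 and 0.142 without KO IMQ 2. Mgl2 has a close relative in Clec10a, which stood at 2.13, 1.63 and 2.37 CPM in vehicle and 2.38 and 0.947 CPM with IMQ, with overlapping groups. The third gene, Tcp11l1, went from 51.8, 48 and 47 CPM to 24.4 and 31.4 CPM (−0.81 ± 0.15, edgeR adjusted p = 0.0367). The Tcp11l1 call was lost in each of the 5 fits that left out a KO library, at adjusted p of 0.0718, 0.0695 and 0.106 without KO vehicle 1, 2 and 3, 0.436 without KO IMQ 1 and 0.0585 without KO IMQ 2.

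In the list of resident and alternatively activated macrophage genes, 4 of the 16 tested rose beside these 2 falls. Over all genes tested, 1.09% were called higher and 0.0174% lower. Cd163 and Mrc1 are counted in the pan-macrophage list too. Stab1, the scavenger receptor stabilin-1, was at 18.6, 22.2 and 19.7 CPM in vehicle and 46.1 and 64 CPM with IMQ (1.45 ± 0.15, edgeR adjusted p = 0.00136). Cd163, the haemoglobin scavenger receptor, was at 10.3, 13.3 and 11.9 CPM in vehicle and 26.1 and 23.4 CPM with IMQ (1.06 ± 0.15, edgeR adjusted p = 0.00841, and 0.116 without KO IMQ 1). Mrc1, the mannose receptor CD206, and F13a1, the A chain of coagulation factor XIII, rose by log2 fold changes of 0.97 ± 0.19 and 0.86 ± 0.16. So genes of this list moved in opposite directions, and their median log2 fold change was 0.75. Without KO vehicle 3, Mrc1 and F13a1 had adjusted p of 0.123 and 0.105, without KO IMQ 1 both 0.229, and without KO IMQ 2 0.336 and 0.236. The members called higher numbered 2 without KO vehicle 3, 1 without KO IMQ 1 and 1 in the fit on the KO libraries alone. Igf1, Lyve1 and Folr2 were higher in both IMQ libraries than in any vehicle library and missed the threshold (edgeR adjusted p = 0.238, 0.305 and 0.0944).

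Several of these genes, among them Lyz2, Trem2, Aif1, Clec10a, Igf1, Lyve1 and Folr2, and further on other textbook members of the lists, were chosen after their values were seen.

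**Figure D2:**
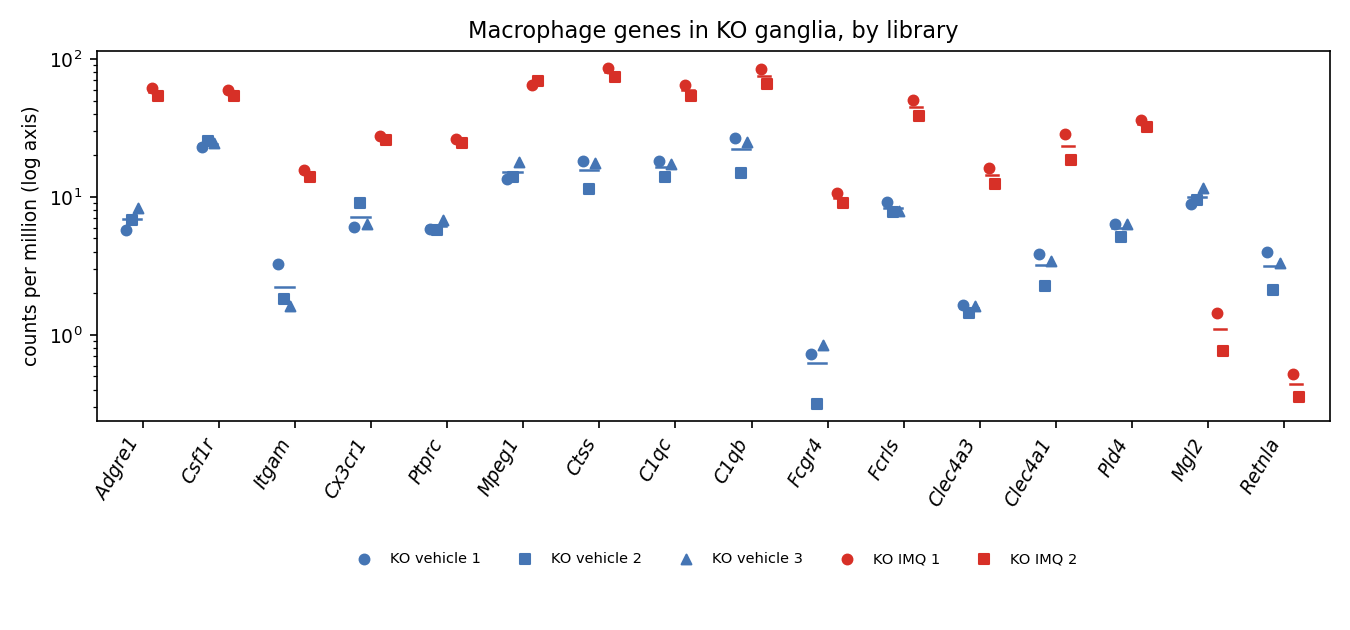
CPM (log axis) of 16 macrophage genes in each KO library, with vehicle in blue, IMQ in red and a bar at the mean of each group. The 2 IMQ libraries lie above the 3 vehicle libraries in 14 genes and below them in Mgl2 and Retnla. All 16 were picked among called genes, so groups that lie apart follow from that choice. Uncalled macrophage genes such as Lyz2, Trem2 and Aif1 are not drawn.

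Receptors for the Fc part of antibodies, and the kinases and adaptors that relay their signal, rose in 12 of 17 genes tested, with none lower. Over all genes tested, 1.09% were called higher. The median log2 fold change of the list was 1.41. The list was written with earlier results of these data known, so its count is a description only. Fcgr4, the activating receptor for IgG2a and IgG2b, was close to absent in vehicle, at 0.729, 0.317 and 0.843 CPM, and stood at 10.7 and 9 CPM with IMQ. Its log2 fold change was 3.99 ± 0.34 (edgeR adjusted p = 0.000791). Fcer1g, the common gamma chain that the activating receptors need, was at 7.96, 3.84 and 6.74 CPM in vehicle and 30.4 and 21.7 CPM with IMQ (2.09 ± 0.29, edgeR adjusted p = 0.00805, and 0.0954 without KO IMQ 1). The inhibitory receptor Fcgr2b, at 7.59, 8.14 and 9.54 CPM in vehicle, was at 14.9 and 15.2 CPM with IMQ (0.83 ± 0.13, edgeR adjusted p = 0.0144, 0.134 without KO IMQ 1 and 0.12 without KO IMQ 2). Activating and inhibitory receptors thus both rose, and both IMQ libraries lay above all vehicle libraries in 16 of the 17 genes, against 12.3% of all genes tested.

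Downstream of the receptors, the kinase genes Lyn and Syk rose by 1.31 ± 0.14 and 1.61 ± 0.26 on the log2 scale. The edgeR adjusted p of Syk was 0.21 without KO IMQ 1 and 0.0537 without KO IMQ 2. Pik3ap1, an adaptor that couples receptors to PI3-kinase, was at 2.73, 3.98 and 3.21 CPM in vehicle and 21 and 17.5 CPM with IMQ (2.53 ± 0.18, edgeR adjusted p = 0.000486). Inpp5d, the phosphatase SHIP1 that limits PI3-kinase signalling, was at 4.8, 4.43 and 4.21 CPM in vehicle and 11.2 and 12.6 CPM with IMQ (1.41 ± 0.15, edgeR adjusted p = 0.00197). Fcrls, a receptor-like gene known from microglia, went from 9.17, 7.82 and 7.95 CPM to 50.7 and 38.7 CPM (2.43 ± 0.20). By contrast Fcgrt, the neonatal Fc receptor that recycles IgG, overlapped between groups, at 50.6, 35.5 and 37.9 CPM in vehicle and 41 and 35.6 CPM with IMQ. Without KO IMQ 1, 5 of the 17 were called higher, and the same number in the fit on the KO libraries alone.

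Promoters of these genes were searched for the motif of PU.1, the transcription factor encoded by Spi1 that is required for macrophage development. The motif was spelled GAGGAAGT and searched on both strands of the window from 250 bases before to 50 after the transcription start, and a base could count toward more than 1 motif. It was in 3 of the 22 called macrophage, Fc receptor and C-type lectin genes with a promoter entry (13.6%: Fcgr4, Inpp5d and Vav1, a guanine nucleotide exchange factor), in 24 of 149 (16.1%) of all genes called higher, and in 3.55% of all genes tested. The 2 with the smallest p are shown as RefSeq has them (build GRCm38.p6, gene strand, 5′ to 3′), with the motif in capitals. They show that the match lies close upstream of the start, 24 bases before it in Fcgr4 (chr1:171018676-171018975) and 20 bases before it in Inpp5d (chr1:87620062-87620361). Both genes lie on the plus strand of chromosome 1, and the match reads on the gene strand in Inpp5d and on the opposite strand in Fcgr4.
Fcgr4: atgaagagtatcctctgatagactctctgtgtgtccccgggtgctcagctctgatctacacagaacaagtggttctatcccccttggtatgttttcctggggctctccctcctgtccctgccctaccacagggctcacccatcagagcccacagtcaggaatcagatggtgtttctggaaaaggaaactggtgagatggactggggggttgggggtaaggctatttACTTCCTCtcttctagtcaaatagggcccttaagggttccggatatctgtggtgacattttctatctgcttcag
Inpp5d: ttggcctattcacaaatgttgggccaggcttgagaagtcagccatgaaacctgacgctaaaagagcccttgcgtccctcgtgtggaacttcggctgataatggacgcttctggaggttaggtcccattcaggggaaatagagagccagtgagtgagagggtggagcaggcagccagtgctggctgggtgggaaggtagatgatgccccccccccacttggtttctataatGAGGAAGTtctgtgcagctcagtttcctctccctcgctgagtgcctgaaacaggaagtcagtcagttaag
The Vav1 call was lost without KO IMQ 1 (edgeR adjusted p = 0.134). These matches are descriptions of the sequence, and binding was not measured. Spi1 itself was at 3.89, 1.4 and 2.69 CPM in vehicle and 9.57 and 5.62 CPM with IMQ, and did not pass the test (1.54 ± 0.36, edgeR adjusted p = 0.118).

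Genes of the C-type lectin receptor family of myeloid cells split by gene. Of 16 tested, 6 rose, Mrc1 (above) among them, and 1, Mgl2, fell, against 1.09% and 0.0174% of all genes tested. The median was 0.36, 0.04 without KO IMQ 1 and 0.56 without KO IMQ 2. The largest rises were those of Clec4a3 and Clec4a1. Clec4a3 was at 1.64, 1.45 and 1.63 CPM in vehicle and 16.2 and 12.5 CPM with IMQ (3.19 ± 0.17, edgeR adjusted p = 3.72e-05). Clec4a1 was at 3.89, 2.26 and 3.42 CPM in vehicle and 28.4 and 18.6 CPM with IMQ (2.89 ± 0.26). In both genes the IMQ libraries were several times above every vehicle library, and neither call was lost without any single KO library. Clec12a, an inhibitory receptor for uric acid crystals, rose by 2.22 ± 0.29 (edgeR adjusted p = 0.00532, and 0.073 without KO IMQ 1). Clec7a, the beta-glucan receptor dectin-1, was at 2.92, 2.08 and 2.9 CPM in vehicle and lower in both IMQ libraries, at 1.8 and 1.3 CPM, but did not pass (−0.75 ± 0.31, edgeR adjusted p = 0.554). The members called higher numbered 3 without KO vehicle 3, 2 without KO IMQ 1 and 2 in the fit on the KO libraries alone. The Clec4a genes are close copies of each other, and how the counting treated reads that fit several of them is not given in the sources used here.

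Paired activating and inhibitory receptors of the CD300, SIRP, SIGLEC, LILR and PIR families had 8 of 21 members called higher and none lower. Over all genes tested, 1.09% were called higher. The median log2 fold change of the list was 0.88. Cd300e, an activating receptor of monocytes, had 0, 0 and 1 counts in the vehicle libraries and 71 and 48 counts with IMQ. That is a 201-fold ratio of normalised counts with an exact 95% counting interval of 35.3 to 7990, and the call held without any single KO library. Siglece, an inhibitory sialic acid receptor, was at 2, 0.769 and 1.53 CPM in vehicle and 12.5 and 9.94 CPM with IMQ (3.00 ± 0.33, edgeR adjusted p = 0.00207). Pirb, an inhibitory receptor that binds MHC class I, was at 5.41, 2.58 and 3.95 CPM in vehicle and 17.8 and 14.4 CPM with IMQ (2.03 ± 0.25, edgeR adjusted p = 0.00449, and 0.0658 without KO IMQ 1). Siglec1, the macrophage receptor CD169, which interferon induces, rose from 0.911, 2.13 and 1.48 CPM to 5.63 and 5.62 CPM (1.87 ± 0.35, edgeR adjusted p = 0.0362). Its edgeR adjusted p was 0.059 without KO vehicle 1, 0.169 without KO vehicle 3, 0.255 without KO IMQ 1 and 0.189 without KO IMQ 2. Without KO IMQ 1, 3 of the 21 were called higher, as in the fit on the KO libraries alone. The 3 Sirpb1 genes among the 8 are near copies, so their separate values are uncertain.

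Of 20 complement genes tested 4 rose, against 1.09% of all genes tested, and the median log2 fold change was 0.65. Itgam is among the 4 and is counted in the pan-macrophage list too. The C1q chains start the classical pathway when they bind antibody or debris: C1qc was at 18.3, 13.9 and 17.2 CPM in vehicle and 64.8 and 54.2 CPM with IMQ (1.86 ± 0.16, edgeR adjusted p = 0.000791). C1qb went from 26.8, 14.8 and 25 CPM to 84.9 and 65.5 CPM (1.76 ± 0.27, edgeR adjusted p = 0.0126), and C1qa from 30.1, 14.2 and 24.5 CPM to 72.9 and 59.6 CPM, which missed the threshold (1.54 ± 0.33, edgeR adjusted p = 0.0779). All 3 chains were thus higher in both IMQ libraries than in any vehicle library. C3ar1, the receptor for the C3a fragment, rose by 2.19 ± 0.26 (edgeR adjusted p = 0.00358). C3 itself, the central component, had 9.78, 12.2 and 16.4 CPM in vehicle and 17.9 and 17.7 CPM with IMQ (0.48 ± 0.23, edgeR adjusted p = 0.615). The C1qb call was lost without KO vehicle 3 (adjusted p = 0.0511) and without KO IMQ 1 (0.146), 2 members were called in the fit on the KO libraries alone, and DESeq2 called 8.

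Among lysosomal enzymes, 3 of 22 genes rose, against 1.09% of all genes tested, and the median log2 fold change was 0.07. Ctss, the protease cathepsin S that antigen-presenting cells use to trim the MHC class II chaperone, was at 18.2, 11.5 and 17.5 CPM in vehicle and 86.7 and 74.2 CPM with IMQ (2.36 ± 0.18, edgeR adjusted p = 0.000486). Ctsc, which activates granule proteases, was at 25.5, 32.2 and 26.7 CPM in vehicle and 74.3 and 76.1 CPM with IMQ (1.42 ± 0.14, edgeR adjusted p = 0.00123). Cathepsins found in most cells gave other values: Ctsb was at 1700 to 1810 CPM in vehicle and 1690 CPM in both IMQ libraries, and Ctsd at 298 to 566 CPM in vehicle and 273 to 334 CPM with IMQ. Cd68, the lysosomal glycoprotein of macrophages, rose by 0.99 ± 0.19 (edgeR adjusted p = 0.0411), and its call was lost in each of the 5 fits that left out a KO library (adjusted p = 0.093, 0.11 and 0.106 without KO vehicle 1, 2 and 3, 0.436 without KO IMQ 1 and 0.115 without KO IMQ 2).

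The receptor that IMQ binds was itself higher. Tlr7 stood at 1.82, 1.9 and 2.32 CPM in vehicle and 5.16 and 5.62 CPM with IMQ, with no overlap, at a log2 fold change of 1.42 ± 0.22 (edgeR adjusted p = 0.0126). Leaving out KO IMQ 1 or KO IMQ 2 gave an adjusted p of 0.0948 and 0.106 at log2 fold changes of 1.48 and 1.35. Unc93b1, the chaperone that carries TLR7 and other nucleic acid receptors to the endosome, was at 12.7, 11.1 and 11.1 CPM in vehicle and 36 and 30.7 CPM with IMQ. It rose by 1.52 ± 0.14 (edgeR adjusted p = 0.00103) and kept its call without any single KO library. Irf7, the transcription factor downstream of TLR7, was at 6.74, 4.48 and 5.85 CPM in vehicle and 22 and 14.7 CPM with IMQ (1.70 ± 0.24, edgeR adjusted p = 0.00927, 0.0521 without KO vehicle 3 and 0.121 without KO IMQ 1). Of the other endosomal receptors, Tlr8 rose from 0.0607, 0.452 and 0.369 CPM to 2.15 and 3.85 CPM and Tlr13, a receptor for bacterial ribosomal RNA, from 1.7, 2.04 and 2.42 CPM to 4.76 and 3.97 CPM. Their edgeR adjusted p were 0.0342 and 0.0489, near the threshold. The Tlr13 call was lost in each fit without 1 KO library, with edgeR adjusted p from 0.0851 to 0.477, and that of Tlr8 in all but the fit without KO vehicle 1, from 0.0573 to 0.275. Tlr9, the receptor for unmethylated DNA, and Tlr3, for double-stranded RNA, were higher in both IMQ libraries than in vehicle and did not pass (edgeR adjusted p = 0.279 and 0.383).

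Surface receptors for bacterial products included both called and uncalled genes. Tlr1 was at 1.28, 1.13 and 2 CPM in vehicle and 11.3 and 5.62 CPM with IMQ (2.53 ± 0.33, edgeR adjusted p = 0.00621, and 0.0707 without KO IMQ 1). Tlr2, its partner for lipoproteins, rose by 1.90 ± 0.34 (edgeR adjusted p = 0.0319), a call lost without KO vehicle 1, 2 or 3 or KO IMQ 1 (0.059, 0.0865, 0.102 and 0.396). Tlr4 and the adaptor Myd88 were higher in both IMQ libraries and did not pass, at log2 fold changes of 0.56 ± 0.26 and 0.39 ± 0.12. In all, 9 of 24 receptor and adaptor genes rose, against 1.09% of all genes tested, none fell and the median was 0.73. Irf7 is among the 9 and is counted in the interferon list too. The number called higher was 5 without KO vehicle 1, without KO vehicle 2 or without KO IMQ 2, 3 without KO vehicle 3, and 1 without KO IMQ 1 or in the fit on the KO libraries alone.

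Interferon response genes were higher as a broad group at moderate folds. Of 67 tested, 23 rose and none fell, against 1.09% of all genes tested called higher. In 65 of these genes the fold change was positive. Both IMQ libraries lay above all vehicle libraries in 56, against 12.3% of all genes tested. Their median log2 fold change was 0.84. Ifit1, which binds viral RNA lacking cap methylation, was at 23.7, 17.2 and 26 CPM in vehicle and 82.1 and 71.6 CPM with IMQ (1.79 ± 0.17, edgeR adjusted p = 0.00123). Oasl2, of the oligoadenylate synthetase family, was at 47.3, 47.9 and 58.5 CPM in vehicle and 123 and 116 CPM with IMQ (1.22 ± 0.12, edgeR adjusted p = 0.00123). Ifi44 was at 1.64, 1.99 and 2.21 CPM in vehicle and 8.59 and 9.06 CPM with IMQ (2.17 ± 0.27, edgeR adjusted p = 0.00472). These 3 genes showed tight groups without overlap and were called without any single KO library. Ddx58, the cytosolic RNA sensor RIG-I, was at 25.4, 28.6 and 31.9 CPM in vehicle and 54.2 and 52.1 CPM with IMQ (0.89 ± 0.13, edgeR adjusted p = 0.00927, 0.116 without KO IMQ 1 and 0.059 without KO IMQ 2).

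Some textbook interferon genes did not pass. Isg15, a ubiquitin-like protein, was at 7.23, 2.98 and 4.53 CPM in vehicle and 7.6 and 5.56 CPM with IMQ, with overlapping groups (0.43 ± 0.38, edgeR adjusted p = 0.691). Ifit3 had 28.9, 18.6 and 27.4 CPM in vehicle and 36.7 and 35.2 CPM with IMQ (0.53 ± 0.23, edgeR adjusted p = 0.582). In both genes the vehicle libraries spread widely, with KO vehicle 2 the lowest and KO vehicle 1 the highest. The count of members called higher ran from 3 without KO IMQ 1 to 19 without KO vehicle 1, was 12 without KO vehicle 3, 9 without KO IMQ 2, 5 in the fit on the KO libraries alone and 35 with DESeq2. The median stayed between 0.76 and 0.95 over the 5 fits that left out 1 KO library. Members of the Ifit, Oas and Ifi200 clusters are near copies whose counts may be shared.

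**Figure D3:**
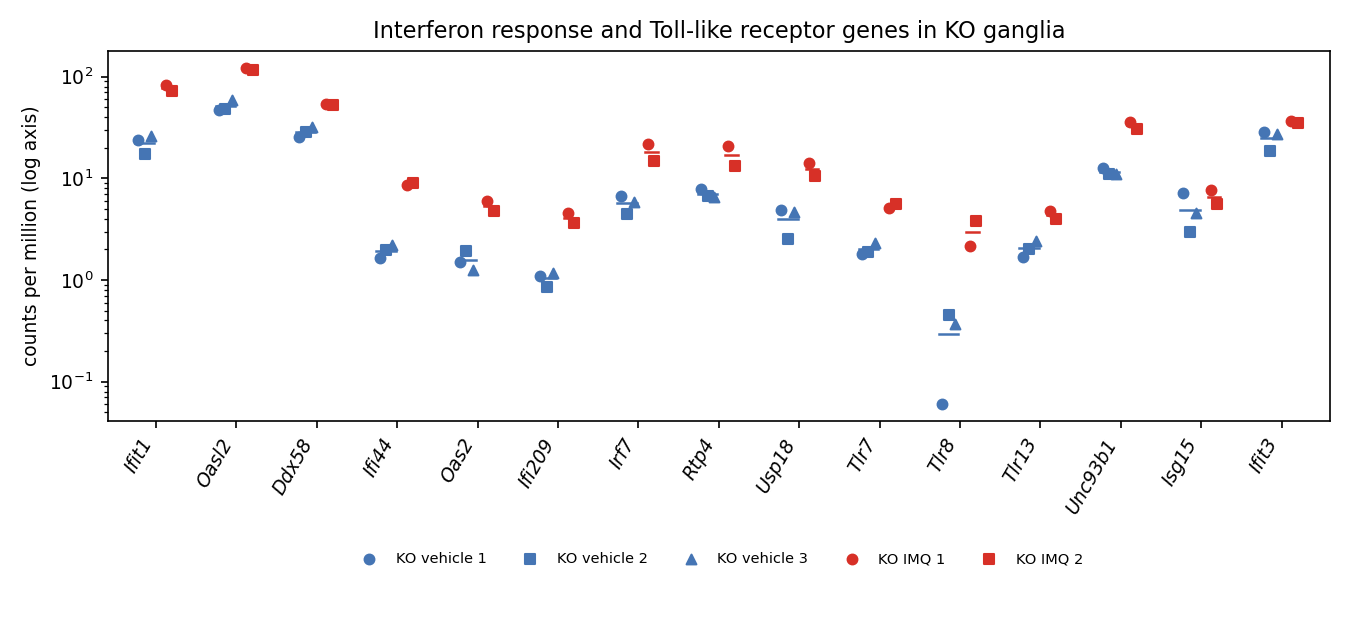
CPM (log axis) of 15 interferon response and Toll-like receptor genes in each KO library, with vehicle in blue, IMQ in red and a bar at each group's mean. The groups are apart in 14 of the 15, Ifit3 among them, and overlap in Isg15. All but Ifit3 and Isg15 were picked among called genes, so their separation follows from that choice.

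The interferon-stimulated response element (ISRE), the site of interferon regulatory factors, was searched in the same promoter windows, on both strands, as GAAA, any 2 bases and GAAA again. Of the 23 called interferon genes, 17 had a promoter entry and 9 of those (52.9%) held a match, against 3.73% of all genes tested and 17.4% of all genes called higher. The motif of STAT dimers, TTCNNNGAA, was in 1 of the 17 (5.88%), against 8.25% of all genes tested, and the PU.1 motif in none. The 3 genes with the smallest p among those with an ISRE match are shown, again from RefSeq in build GRCm38.p6 on the gene strand, with the match in capitals. They differ in where the match lies: Ifit1 (chr19:34640639-34640938, plus strand) has 2 matches, of which the one at 104 bases before the start is the farther, Ddx58 (chr4:40239776-40240075, minus strand) has 1 at position 2 after the start, and Ifi207 (chr1:173741760-173742059, minus strand) has 1 at 41 bases before the start.
Ifit1: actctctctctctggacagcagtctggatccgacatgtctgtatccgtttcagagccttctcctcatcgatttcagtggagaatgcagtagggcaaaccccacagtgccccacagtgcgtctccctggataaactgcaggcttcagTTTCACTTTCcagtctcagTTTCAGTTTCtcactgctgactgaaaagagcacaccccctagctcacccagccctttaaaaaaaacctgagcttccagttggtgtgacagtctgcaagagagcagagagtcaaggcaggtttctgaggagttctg
Ddx58: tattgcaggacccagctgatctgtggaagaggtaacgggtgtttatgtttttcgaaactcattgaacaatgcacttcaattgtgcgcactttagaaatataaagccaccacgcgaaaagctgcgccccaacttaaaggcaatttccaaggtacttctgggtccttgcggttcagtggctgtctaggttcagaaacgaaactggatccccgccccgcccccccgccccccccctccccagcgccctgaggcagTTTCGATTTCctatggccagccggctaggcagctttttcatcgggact
Ifi207: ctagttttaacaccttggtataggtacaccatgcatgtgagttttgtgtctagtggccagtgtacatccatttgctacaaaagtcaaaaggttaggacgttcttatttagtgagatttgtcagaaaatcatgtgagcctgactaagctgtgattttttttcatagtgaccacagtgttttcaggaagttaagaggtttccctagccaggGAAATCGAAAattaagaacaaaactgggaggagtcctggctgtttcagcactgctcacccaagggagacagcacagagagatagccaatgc
The Ifit1 window, with 2 matches, belongs to the gene with the smallest p of the list. The Ifi207 call was lost without KO IMQ 1 (edgeR adjusted p = 0.0791) or KO IMQ 2 (0.117). A match is not a measured binding site, and the genes without one in this window were not searched further.

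Genes in none of the lists made up 102 of the 187 called higher, and those with the smallest p are described here. Pld4, an endosomal exonuclease that degrades nucleic acid ligands of Toll-like receptors, was at 6.32, 5.16 and 6.37 CPM in vehicle and 36 and 31.9 CPM with IMQ (2.52 ± 0.14, edgeR adjusted p = 3.72e-05). Mpeg1, the pore-forming perforin-2 of macrophages, was at 13.6, 14 and 17.8 CPM in vehicle and 64.4 and 69.3 CPM with IMQ (2.14 ± 0.16, edgeR adjusted p = 0.000486). Ms4a6c, of the membrane-spanning 4A family, was at 5.59, 4.39 and 5.48 CPM in vehicle and 32.3 and 21.4 CPM with IMQ (2.38 ± 0.20). For each of these the lowest IMQ library was more than 3 times the highest vehicle library.

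Others of these are known for adhesion, migration and inhibitory signalling in leukocytes. Itgb2, the beta chain shared by the leukocyte integrins, was at 5.71, 3.35 and 3.95 CPM in vehicle and 25.9 and 21.7 CPM with IMQ (2.46 ± 0.23), beside Itgam above and Itgal, the CD11a chain, at 2.21 ± 0.28. Nckap1l, the blood cell subunit of the actin-regulating WAVE complex, rose by 1.84 ± 0.16 and Apbb1ip, which links the small GTPase RAP1 to integrins, by 1.88 ± 0.20. Cybb, the catalytic subunit of the phagocyte NADPH oxidase, was at 10.7, 8.28 and 8.11 CPM in vehicle and 23.9 and 20.8 CPM with IMQ (1.31 ± 0.14, edgeR adjusted p = 0.00197). Lair1, an inhibitory collagen receptor, and Ptpn6, the phosphatase SHP-1, rose by 1.37 ± 0.14 and 1.62 ± 0.18. Wfdc17, a small secreted protein of activated macrophages, went from 1.52, 0.678 and 1.11 CPM to 11.3 and 8.29 CPM (3.17 ± 0.28). Except for Itgal (edgeR adjusted p = 0.0758 without KO IMQ 1), these genes kept their calls without any single KO library.

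Monocyte genes had 2 of 13 called, Cd300e and Itgal, against 1.09% of all genes tested, and 1 without KO IMQ 1. Their median log2 fold change of 0.27 depended on single libraries: it was 1.19 without KO vehicle 1, 0.038 without KO vehicle 3, 0.095 without KO IMQ 1, 0.63 without KO IMQ 2 and close to 0 without KO vehicle 2. Ly6c2 and Ccr2, which define inflammatory monocytes, overlapped between groups, at 4.56, 0.362 and 1.32 CPM (Ly6c2) and 10.3, 8.91 and 8.32 CPM (Ccr2) in vehicle and at 3.54 and 1.3 CPM and 12.9 and 9.77 CPM with IMQ. Neutrophil genes summed to 396, 38.4 and 72.2 CPM in vehicle and to 127 and 53.8 CPM with IMQ, with KO vehicle 1 the highest library, their median log2 fold change was −0.60 (0.63 without KO vehicle 1), and 1 of 17 was called (2 without KO vehicle 1, none without KO vehicle 3 or KO IMQ 1 or in the fit on the KO libraries alone). That gene, Fpr1, the receptor for bacterial formyl peptides, rose from 0.243, 0.0452 and 0.158 CPM to 5.11 and 1.6 CPM (4.51 ± 0.64, edgeR adjusted p = 0.00855, 0.0511 without KO vehicle 3 and 0.0758 without KO IMQ 1). S100a8 and S100a9, the main granulocyte proteins, had overlapping groups. Of 10 dendritic cell genes tested 1, Irf8, was called higher, against 1.09% of all genes tested, and the median was 0.0189. The Irf8 call was lost without KO vehicle 2 (edgeR adjusted p = 0.0559) and KO vehicle 3 (0.118). Cd209a of that list was at 0.607, 0.588 and 1.63 CPM in vehicle and 0.232 and 0.237 CPM with IMQ. It did not pass (−1.98 ± 0.59, edgeR adjusted p = 0.29). No mast cell gene (9 tested) and no T or NK cell gene (8 tested) was called by edgeR or DESeq2, with 2 and 1 of them higher at an unadjusted p under 0.05. None called in lists this small is near the 1.1% of all genes tested that edgeR called.

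Genes of the B cell and plasma cell list rose in 3 of 15, against 1.09% of all genes tested. The defining B cell markers Ms4a1 and Cd79a were not among the 3. Fcrl5, an immunoglobulin-binding receptor, had no count in any vehicle library and 65 and 49 counts with IMQ, which is at least 64.1-fold higher, taking 3 counts over the vehicle group as the floor. Cd72, a negative regulator of B cell signalling, was at 2.92, 1.36 and 2.21 CPM in vehicle and 24.1 and 16.3 CPM with IMQ (3.24 ± 0.32, edgeR adjusted p = 0.00126). Blnk, an adaptor downstream of the B cell receptor, was at 1.34, 0.452 and 1 CPM in vehicle and 5.63 and 5.33 CPM with IMQ (2.59 ± 0.32). Ms4a1, the B cell surface protein CD20, was at 0.547, 0.769 and 0.105 CPM in vehicle and 0.87 and 0.178 CPM with IMQ. Cd79a, a signalling chain of the B cell receptor, was at 3.22, 1.36 and 1.84 CPM in vehicle and 2.03 and 1.89 CPM with IMQ, and both genes overlapped between groups. Transcripts of antibody chains were higher in both IMQ libraries, with Ighm at 30.1, 12.9 and 23 CPM in vehicle and 66.7 and 45.3 CPM with IMQ, Igkc at 8.44, 1.54 and 9.43 CPM and then 24.9 and 17.1 CPM, and Jchain at 2.79, 1.31 and 5.16 CPM and then 11 and 8.7 CPM. These did not pass the test (edgeR adjusted p = 0.191, 0.439 and 0.279). A single kappa variable segment, Igkv14-126, had no vehicle count and 23 and 32 counts with IMQ, at least 30.9-fold higher over the same floor (edgeR adjusted p = 0.027). Its call was lost without KO vehicle 2 (edgeR adjusted p = 0.0527), KO vehicle 3 (0.0851), KO IMQ 1 (0.134) or KO IMQ 2 (0.149), and DESeq2 gave an adjusted p of 0.273.

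Antigen presentation genes were mostly not called. The classical MHC class II chains, which load peptides for CD4+ T cells, were lower or overlapping with IMQ: H2-Aa was at 69.4, 29.5 and 73.8 CPM in vehicle and 28.6 and 17.3 CPM with IMQ. H2-Ab1 was at 35.5, 17.4 and 39 CPM in vehicle and 15.7 and 12 CPM with IMQ, and H2-Eb1 at 58.7, 24 and 61.8 CPM and then 24.5 and 14.3 CPM. In H2-Aa and H2-Ab1 both IMQ libraries lay below all vehicle libraries, in H2-Eb1 KO IMQ 1 lay above KO vehicle 2, and in each KO vehicle 2 was the lowest of the vehicle libraries. None passed the edgeR test (−1.32 ± 0.39, −1.14 ± 0.33 and −1.31 ± 0.42, adjusted p = 0.279, 0.263 and 0.361), while DESeq2, and edgeR without KO vehicle 2, called all 3 lower. H2-Ab1, for instance, had an adjusted p of 0.0271 with DESeq2 and 0.0176 without KO vehicle 2. Ctss, also in the lysosomal list, was the only 1 of 14 class II pathway genes called by the main test, against 1.1% of all genes tested. MHC class I pathway genes had none of 18 called with edgeR and 1 with DESeq2 (2 were higher at an unadjusted p under 0.05), and a median of 0.28.

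Chemokine and cytokine genes were mostly low. Of 22 chemokines tested, edgeR called none, DESeq2 called 4 higher and 1 lower, and 7 were higher and 3 lower at an unadjusted p under 0.05. Ccl9 had 4.01, 4.07 and 4.58 CPM in vehicle and 9.8 and 6.27 CPM with IMQ (edgeR adjusted p = 0.0729), and Cxcl13, which attracts B cells, 0.121, 0.0905 and 0.896 CPM in vehicle and 3.71 and 3.55 CPM with IMQ (edgeR adjusted p = 0.11). Ccl3 and Ccl4, attractants of macrophages, had most of their counts in KO IMQ 1, with 59 and 33 counts there against 2 and 6 in KO IMQ 2. Without KO IMQ 2 edgeR called 3 chemokines higher, Ccl4 and Ccl9 among them (adjusted p = 0.0323 and 0.0256). Of 13 chemokine receptors 2 rose, against 1.09% of all genes tested, and Cx3cr1 (above) is among them.

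In the list of cytokines and their receptors 5 of 37 were called higher, 4 receptor genes and Il10, against 1.09% of all genes tested. Csf1r is among the 5 and is counted in the pan-macrophage list too. Il10ra, the ligand-binding chain of the interleukin-10 receptor, was at 5.65, 5.65 and 6.43 CPM in vehicle and 12 and 12.7 CPM with IMQ (1.06 ± 0.13, edgeR adjusted p = 0.00383). Il10, the anti-inflammatory cytokine, had 1, 0 and 0 counts in vehicle and 19 and 10 counts with IMQ, a ratio of 48.9 with an exact 95% counting interval of 8.11 to 2000 (edgeR adjusted p = 0.0183). Tnfrsf1b, the second receptor for tumour necrosis factor, rose by 1.22 ± 0.16 (edgeR adjusted p = 0.00533). Il17ra, a receptor chain for the psoriasis cytokine interleukin-17A, had 3.89, 3.89 and 4.11 CPM in vehicle and 6.44 and 5.33 CPM with IMQ (edgeR adjusted p = 0.279), and the cytokine gene Il6 was under 1 CPM in each library. The Il10 call was lost without KO vehicle 2 (edgeR adjusted p = 0.0653), KO vehicle 3 (0.0905) or KO IMQ 1 (0.212), that of Tnfrsf1b without KO IMQ 1 (0.0758), and the count of 5 became 3 without KO vehicle 2 or KO vehicle 3, 2 without KO IMQ 1 and 1 in the fit on the KO libraries alone. Of 19 acute phase and STAT3 target genes the 1 that rose was Saa3, the serum amyloid A made by macrophages and adipocytes, from 2, 1 and 1 counts to 34 and 48 counts (4.98 ± 0.50, edgeR adjusted p = 0.00136).

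**Figure D4:**
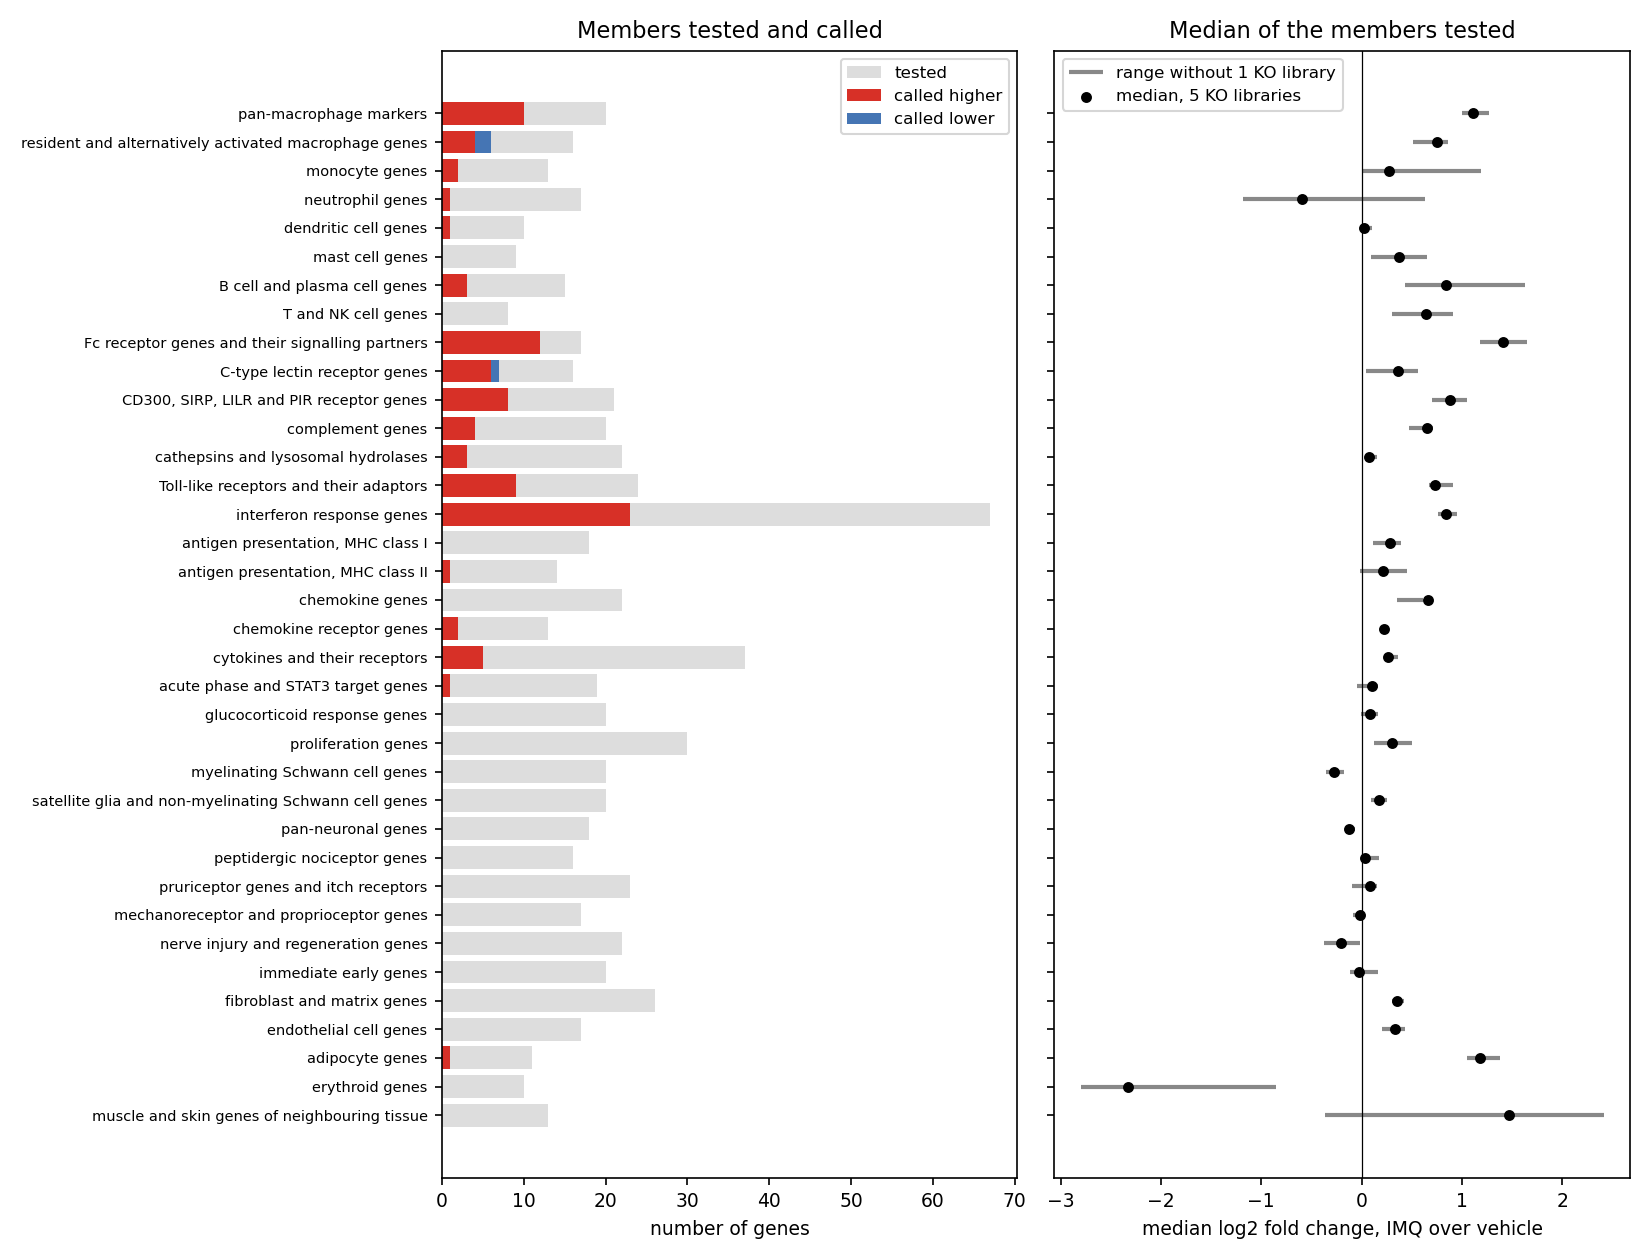
Left, number of genes tested (grey) and called higher (red) or lower (blue) in each gene list. Right, median log2 fold change of the tested members over the 5 KO libraries (points) with the range when 1 KO library is left out (lines). The Fc receptor list has the largest share called higher, 12 of 17, followed by the pan-macrophage list with 10 of 20. The lists were written with earlier results of these data known, so this order only describes them.

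No gene of the 5 neuronal lists was called by edgeR, against 1.1% of all genes tested. None called is near that share and does not show that neurons were unchanged. Over the 96 entries tested in these lists, 1 was higher and 4 lower at an unadjusted p under 0.05. Over all 17197 genes tested, 901 were higher and 541 lower at that level. The medians of the lists lay between −0.208 and 0.0802. Genes outside these lists were not sorted by cell type. Tubb3, the neuronal tubulin, was at 1710, 1700 and 1850 CPM in vehicle and 1740 and 1630 CPM with IMQ (−0.06 ± 0.10). Scn10a, the sodium channel Nav1.8 of nociceptors, was at 722, 1030 and 894 CPM in vehicle and 749 and 1060 CPM with IMQ (0.04 ± 0.20). In both, IMQ and vehicle overlapped. Trpv1, the capsaicin and heat receptor, was at 121, 140 and 145 CPM in vehicle and higher in both IMQ libraries, at 169 and 187 CPM, without passing (0.39 ± 0.13, edgeR adjusted p = 0.381). Pou4f1, the sensory neuron transcription factor BRN3A, was lower in both IMQ libraries, at 234 and 222 CPM against 316, 270 and 291 CPM in vehicle (−0.36 ± 0.11, edgeR adjusted p = 0.279). It was the 1 member of the 5 neuronal lists that DESeq2 called (adjusted p = 0.0447).

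No gene of the itch list was called either. Of 23 pruriceptor genes edgeR and DESeq2 called none, and none reached an unadjusted p under 0.05. With 1.1% of all genes tested called by edgeR, none called of 23 is near the share over all genes. Il31ra, the receptor for the itch cytokine interleukin-31, was at 20.5, 37.9 and 32.3 CPM in vehicle and 34.9 and 52.4 CPM with IMQ (0.52 ± 0.29, edgeR adjusted p = 0.633), and its partner Osmr at 59, 72.9 and 72.3 CPM and then 73.8 and 87 CPM. Mrgprd, of the nonpeptidergic nociceptors, spread from 60.1 to 135 CPM within vehicle and from 71.1 to 150 CPM with IMQ, so a small change would not be detectable. Of the axon injury genes, Atf3, an injury-induced transcription factor, did not pass (−0.34 ± 0.20, edgeR adjusted p = 0.636). Its values were 15.5, 11.7 and 16 CPM in vehicle and 11.1 and 11.7 CPM with IMQ, so KO IMQ 2 and KO vehicle 2 were equal at the digits shown. Sprr1a was under 1.4 CPM in each library. In the injury list 6 of 22 had both IMQ libraries below every vehicle library and 0 had both above, against 11.1% and 12.3% of all genes tested, and the median was −0.208 (−0.017 without KO vehicle 1). None of the 22 was called by edgeR or DESeq2, and 3 were lower at an unadjusted p under 0.05. Of 20 immediate early genes none was called, near the 1.1% of all genes tested, with 2 higher and 1 lower at an unadjusted p under 0.05.

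No gene of the glial lists passed the main edgeR test, which is near the 1.1% of all genes tested that were called. Myelinating Schwann cell genes had a median of −0.28 with 8 of 20 lower in both IMQ libraries than in every vehicle library, against 11.1% of all genes tested. Mbp, which encodes myelin basic protein, was at 1690, 1350 and 1740 CPM in vehicle and 1360 and 1200 CPM with IMQ, with KO IMQ 1 just above KO vehicle 2 (−0.31 ± 0.23, edgeR adjusted p = 0.655). Drp2, which anchors the Schwann cell membrane to dystroglycan, was at 324, 428 and 388 CPM in vehicle and 236 and 243 CPM with IMQ (−0.67 ± 0.16, edgeR adjusted p = 0.129), and DESeq2 called it lower (adjusted p = 0.00992). It was the 1 gene of the myelinating Schwann cell list called by either tool. Satellite glia genes had a median of 0.17, and edgeR with the replicate block called 1 of 20 higher. In 6 of these 20 both IMQ libraries lay above every vehicle library, against 12.3% of all genes tested, and in 0 both lay below (11.1%). At an unadjusted edgeR p under 0.05, 6 of the 20 were higher and 0 lower. Over all 17197 genes tested, 901 were higher and 541 lower at that level. Fabp7, a fatty acid binding protein of satellite glia, was at 202, 113 and 139 CPM in vehicle and 353 and 220 CPM with IMQ (0.92 ± 0.26, edgeR adjusted p = 0.253), and Kcnj10, the potassium channel Kir4.1, at 45.7, 68.7 and 56.8 CPM and then 84.9 and 85.6 CPM (0.58 ± 0.19, edgeR adjusted p = 0.379). Both lay higher in each IMQ library, and DESeq2 called Fabp7 (adjusted p = 0.0433). Gfap, the filament of reactive glia, was at 2.73 to 4.48 CPM in vehicle and 6.27 and 5.03 CPM with IMQ.

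**Figure D5:**
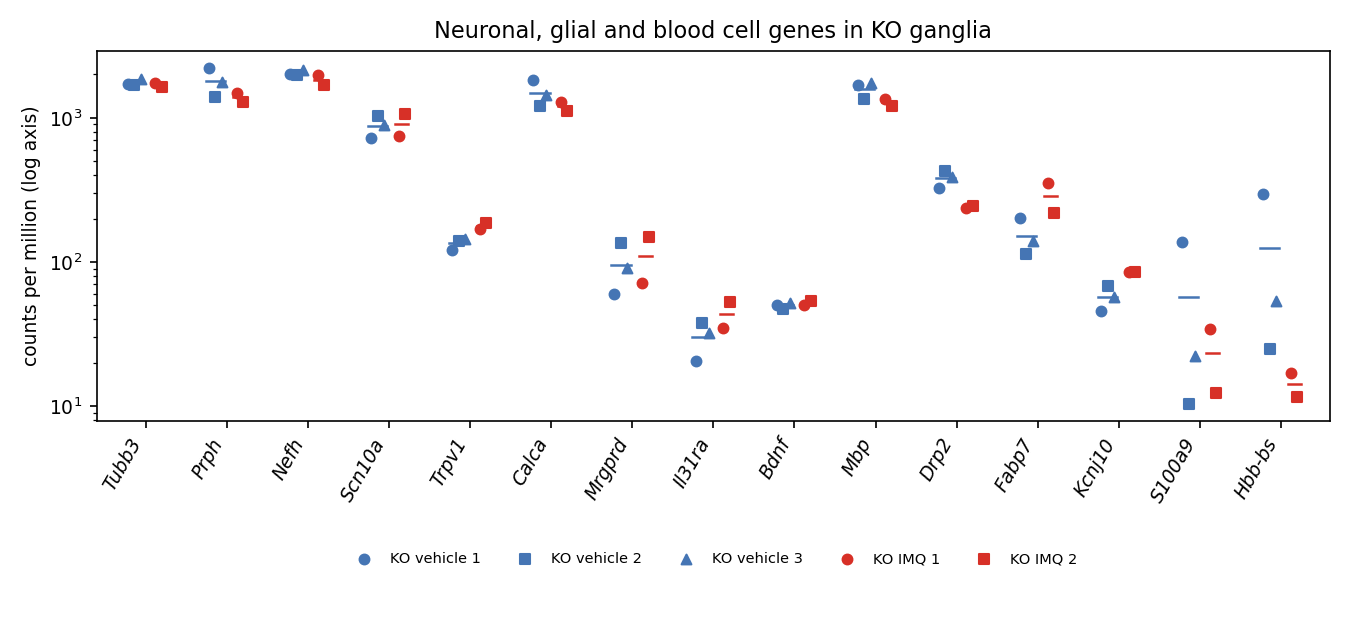
CPM (log axis) of 15 neuronal, glial and blood cell genes in each KO library, with vehicle in blue, IMQ in red and a bar at each group's mean. None was called by the main edgeR test, while DESeq2 called Drp2 and Hbb-bs lower and Fabp7 higher. The haemoglobin gene Hbb-bs and the neutrophil gene S100a9 show KO vehicle 1 above the other 4 libraries.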

How the data were processed

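The deposited ganglion table holds raw counts per gene for 10 libraries, made by the authors from stranded (dUTP), poly-A selected RNA, per the labels' protocols. HISAT2 2.1.0, Bowtie2 2.2.3, TopHat2 and build GRCm39 are named, with no role, per the submitters' processing notes. The sources used here do not give the counting tool, its strand setting or the annotation release. Of 55487 genes in the table, 55141 were matched to a symbol. The 12 libraries of cultured neurons were not used here.

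Genes passing edgeR's filterByExpr (17197) were fitted with edgeR 4.0.16 (TMM scaling, robust quasi-likelihood fit, 4 group means over 10 libraries, R 4.3.3). The KO IMQ minus KO vehicle contrast was tested with Benjamini-Hochberg adjustment at 0.05, and the code was tested on simulated data. SE is the log2 fold change divided by the square root of F. Counting intervals and floors cover counting error only. A count of 0 over a group was set to a floor of 3 counts. The alternatives were DESeq2 1.42.0, its size factors in edgeR, no low-count filter, the 5 KO libraries alone, a replicate block and leaving out each KO library.

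The members, the 36 gene lists (645 of 715 genes tested) and the tests were chosen with earlier results of these data known. Genes were named by a rule: Postn, the 12 largest rises, all falls, the 10 highest called genes, the 15 with the smallest p in no list, up to 6 called members per list (or 3 by smallest p), and the 3 highest neuronal and glial members per list. The text draws on these, and 45 further genes were chosen after their values were seen. Levels are not corrected for gene length and were not compared between genes. A few genes are not reported here. Promoters are RefSeq windows of build GRCm38.p6, from 250 bases before to 50 after the start.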

Additional observations from a re-analysis of the deposited data

How the results depend on the processing

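With scaling by DESeq2's size factors in edgeR the calls became 186 higher and 3 lower, with DESeq2 275 and 21, and with no low-count filter 247 and 5. With the 5 KO libraries alone edgeR called 57 higher and 1 lower. Leaving out each KO library in turn gave 53 to 163 higher and 1 to 9 lower. Of the 187 called higher, 185 were shared with the size factor scaling, 183 with DESeq2, 183 with no filter, 56 with the KO libraries alone and 52 with the fit without KO IMQ 1. The cause of these differences was not tested. Of 88 called genes named here, 41 kept their call under all 10 alternatives and 46 without any single KO library.

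The groups share replicate numbers 1 and 2, but the labels do not say that a number marks a shared animal or day, so the samples were not paired. With the replicate block, 226 were called higher, 172 of them among the 187, and 13 lower, Igkv14-126 (adjusted p = 0.0633) and Tlr13 (0.0769) lost their calls, and the log2 fold change of Trem2 turned to −0.05. Deviations of same-numbered libraries correlated at r = 0.753 and 0.759 over 10793 genes, a value that is not independent between the numbers, since the 2 IMQ libraries deviate from their mean by exact opposites.

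Some uncalled genes changed direction when 1 KO library was left out, and their log2 fold changes then ranged as follows: Apoe −0.42 to 0.09, Cacna2d1 −0.02 to 0.30, Cd79a −0.36 to 0.31, Clec10a −1.10 to 0.22, Fcgrt −0.21 to 0.07, Gap43 −0.28 to 0.02, Hmgcs1 −0.11 to 0.16, Ly6c2 −0.62 to 1.57, Mrgprd −0.42 to 0.66, Ms4a1 −1.40 to 0.85, Myh4 −0.49 to 4.35, Mylpf −0.04 to 2.89, Nefm −0.09 to 0.08, P2rx3 −0.11 to 0.48, Plcb3 −0.07 to 0.23, Ret −0.01 to 0.29, S100a8 −2.62 to 0.38, S100a9 −2.19 to 0.53, Scn10a −0.24 to 0.27, Sprr1a −0.23 to 1.5, Trem2 −0.04 to 0.32 and Ttn −0.19 to 3.25. With 2 IMQ libraries, changes of low genes and of genes that spread between vehicle libraries may go undetected.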

Other observations

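Genes of connective tissue and vessels lay mostly on the higher side without passing the main edgeR test. Of 26 fibroblast and matrix genes, 14 were higher in both KO IMQ libraries than in every KO vehicle library, against 12.3% of all genes tested, and the median log2 fold change was 0.35. Edge cases were Col3a1, a fibrillar collagen, at 151, 163 and 104 CPM in vehicle and 276 and 226 CPM with IMQ (0.85 ± 0.19, edgeR adjusted p = 0.0942), and Thbs2, a matricellular thrombospondin, at 3.77, 6.92 and 6.32 CPM and then 12.6 and 11.9 CPM (1.10 ± 0.25, edgeR adjusted p = 0.0942). The main edgeR test called none of the 26, which is near the 1.09% of all genes tested that it called higher. DESeq2 called 3 higher and edgeR with the replicate block 3, and 7 were higher at an unadjusted edgeR p under 0.05. Over all 17197 genes tested, 901 were higher at that level. Endothelial genes had 8 of 17 higher in both IMQ libraries than in every vehicle library, against the same 12.3%, and 6 higher at an unadjusted p under 0.05. Neither tool called any of the 17 in its fit of all libraries, which for edgeR is again near 1.09%. edgeR called 1 endothelial gene higher without KO vehicle 3 and 1 with the replicate block. Pecam1, the endothelial and leukocyte adhesion molecule CD31, was at 14, 18 and 15.9 CPM in vehicle and 25.5 and 25.1 CPM with IMQ (0.66 ± 0.18, edgeR adjusted p = 0.221).

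Adipocyte genes had a median log2 fold change of 1.18 over 11 tested, of which edgeR called 1, against 1.09% of all genes tested. The 1 called was Cd36, a fatty acid translocase that macrophages and endothelium also express, at 5.77, 6.24 and 6.16 CPM in vehicle and 10.8 and 13.2 CPM with IMQ (0.99 ± 0.16, edgeR adjusted p = 0.0188). The call was lost without KO vehicle 3 (edgeR adjusted p = 0.0851), KO IMQ 1 (0.0758) or KO IMQ 2 (0.195), and in the fit on the KO libraries alone. The defining markers Adipoq and Plin1 summed to 0.474 to 0.911 CPM in vehicle and to 2.84 and 2.07 CPM with IMQ. None of 30 proliferation genes was called by edgeR or DESeq2, and 3 were called without KO vehicle 1. None called is near the 1.1% of all genes tested that edgeR called. At an unadjusted p under 0.05, 3 proliferation genes were higher and 1 lower. None of 20 glucocorticoid response genes was called by either tool, with 2 higher at that level. Erythroid genes had a median of −2.33, and −0.86 without KO vehicle 1, and edgeR called none of 10 while DESeq2 called 3 lower. The muscle and skin list had a median of 1.47, and −0.37 without KO IMQ 1.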
